A study of Mus musculus with 6 samples.

Results

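Glutathione and the NRF2 antioxidant program were followed through 10 genes chosen by name: Nfe2l2, Gclc, Gclm, Gss, Gsr, Gpx4, Txnrd1, Hmox1, Srxn1 and Slc7a11. All 10 were found among the 56748 genes of the count table, and 9 of them passed the filter on low counts that left 14936 genes for testing. Slc7a11 was the member that did not pass.

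The cells were naive CD4 T cells of wild-type C57BL/6 mice aged 6 to 10 weeks, purified by negative selection from spleen and lymph nodes. They were stimulated through CD3 and CD28 for 72 hr with IL-2, TGF-β and antibodies that block IFNγ and IL-4, the mix that drives naive cells toward regulatory T cells (Tregs). An antisense oligonucleotide (ASO), a short synthetic strand that pairs with a chosen RNA, was in the medium of every culture at 10 μM from the start. In 3 libraries, labelled scrambled ASO, its sequence had no intended target, and in the other 3, labelled Pgam ASO, it was directed at phosphoglycerate mutase, an enzyme of glycolysis. Cells were not sorted before RNA was taken, so each library held every cell of its culture. The medium of both groups held 2-mercaptoethanol, a reducing thiol. The question put to the 10 genes was how their mRNA differed between the labelled groups. Total estimated counts ran from 15860476 to 18032805 per library.

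Glutathione is a tripeptide of glutamate, cysteine and glycine, and it is the main small thiol with which cells detoxify peroxides. The transcription factor NRF2, encoded by Nfe2l2, binds antioxidant response elements with a small MAF partner and raises genes that make and recycle glutathione and thioredoxin. NRF2 is held down mainly at the protein level, by KEAP1-dependent degradation, and BACH proteins compete for the same elements. Activated T cells need glutathione to sustain growth, and cysteine supply is a known limit on its synthesis.

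Of the 9 tested members, 3 rose in the libraries labelled Pgam ASO (Gclm, Gss and Txnrd1) and 0 fell, by the quasi-likelihood test of edgeR, with p adjusted by Benjamini-Hochberg over all tested genes and a threshold of 0.05. Among all 14936 tested genes, 17.2% were called, 8.03% higher and 9.15% lower. At an unadjusted p under 0.05 edgeR had 4 members higher, with Srxn1 added, and 0 lower, beside 17.2% of all tested genes higher and 17.7% lower. DESeq2 called the same 4 higher at an adjusted p under 0.05 and 0 lower, where it called 10.4% of all tested genes higher. The median log2 fold change (Pgam ASO over scrambled ASO) was 0.37 over the 9 tested members and -0.0061 over all tested genes. The libraries of the 2 groups did not overlap for 3 tested members, all higher in the Pgam ASO group, where 19.6% of all tested genes were higher without overlap and 19.8% lower. Each of the 3 calls was lost when any of several single libraries was left out, as given after the members' values.

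**Figure D1:**
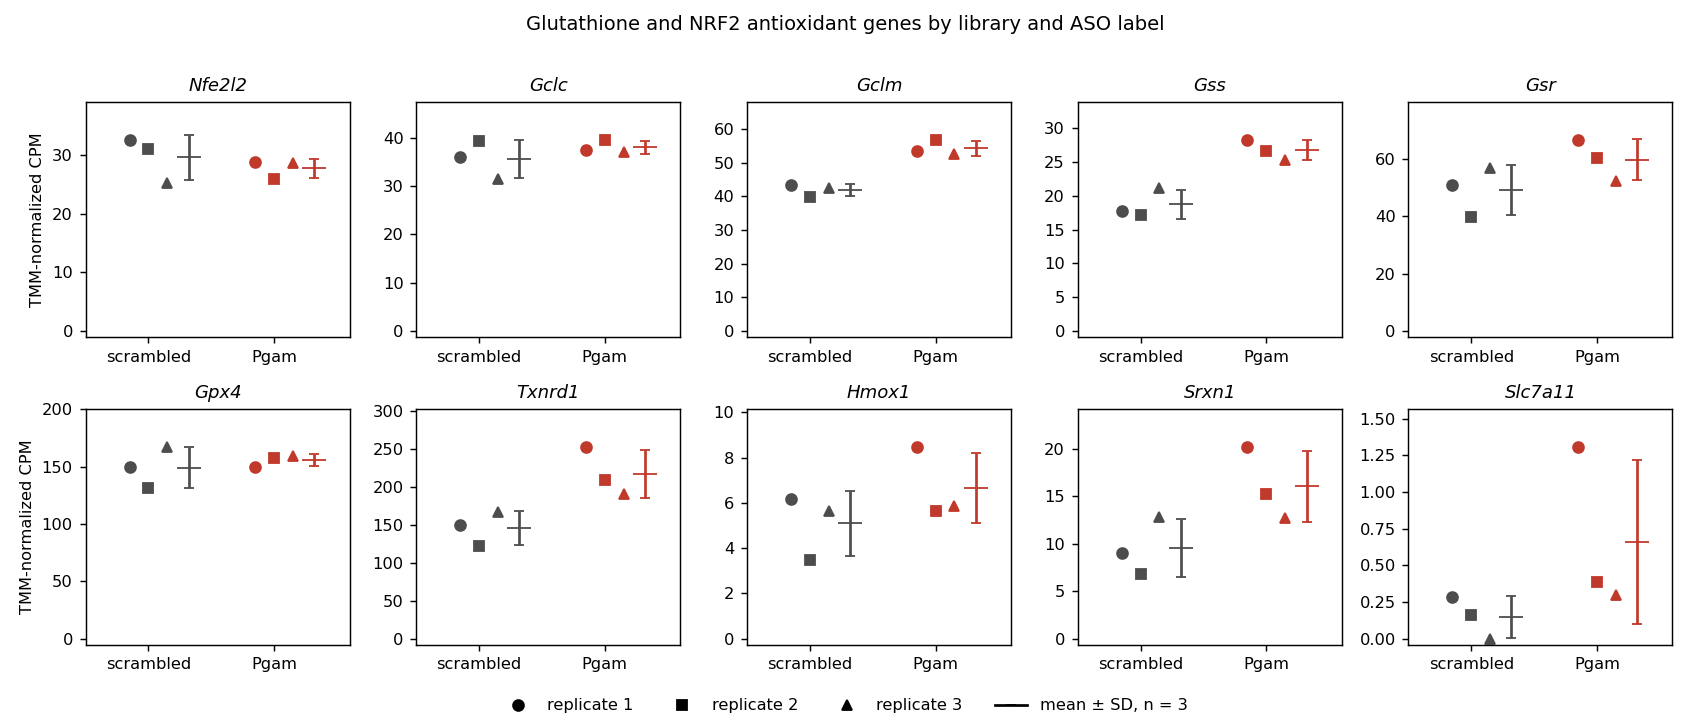
CPM (estimated counts scaled by TMM-normalized library size, vertical axes from about 0) of the 10 antioxidant genes in each of the 6 libraries, grouped by ASO label, with marker shape for the replicate number and bars for the mean ± SD of 3 libraries. Gclm, Gss and Txnrd1 lay higher in every Pgam ASO library than in any scrambled ASO library, as did Slc7a11, narrowly and at few counts, and the groups overlapped for Nfe2l2, Gclc, Gsr, Gpx4, Hmox1 and Srxn1.

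The targeted gene was examined first, in CPM, which are counts scaled to a common library size after TMM normalization. Pgam1 mRNA stood at 600, 478 and 707 CPM in scrambled ASO replicates 1, 2 and 3 and at 658, 661 and 707 CPM in Pgam ASO replicates 1, 2 and 3. The groups overlapped, and no Pgam ASO library lay below the scrambled ASO range. The log2 fold change of Pgam1 was 0.18 (SE 0.13, edgeR adjusted p 0.331), so its mRNA was not detectably lower under the Pgam label. Of the 31-base stretches of Pgam1 transcripts, the length on which Kallisto by default assigns reads, 37.1% also occurred in transcripts of other genes, all of them in the processed copy Pgam1-ps2, which held 749 counts over all libraries. Pgam2, the muscle form, was low, with means of 4.94 ± 1.97 and 2.76 ± 0.197 CPM (SD, n = 3 each), and did not pass (log2 fold change -0.84, edgeR adjusted p 0.0854). The groups are therefore named by their labels throughout. The authors assayed PGAM1 protein by flow cytometry apart from these libraries, and they report less of it with the Pgam ASO. That assay was not analysed here. Foxp3, the factor that defines Tregs, had 282, 371 and 222 CPM in the scrambled ASO libraries and 89.7, 109 and 131 CPM in the Pgam ASO libraries. It fell by 1.41 on the log2 scale (SE 0.20, edgeR adjusted p 0.00567). In bulk RNA, fewer cells of a type and less RNA per cell cannot be told apart, for Foxp3 as for the antioxidant genes.

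Nfe2l2 itself differed little between the labels. Its level was 32.6, 31.1 and 25.3 CPM in the scrambled ASO libraries and 28.8, 25.9 and 28.6 CPM in the Pgam ASO libraries. The Pgam ASO libraries lay inside the scrambled range, with scrambled replicate 3 the lowest of the 6. The log2 fold change was -0.10 (SE 0.12, edgeR adjusted p 0.605). The protein, whose stability sets NRF2 activity, was not measured here.

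Glutathione is built in 2 enzymatic steps. Glutamate-cysteine ligase carries out the first and rate-limiting step, with Gclc as its catalytic subunit and Gclm as the modifier subunit that raises its affinity for glutamate. Gclc was measured at 36.0, 39.3 and 31.5 CPM under the scrambled label and at 37.4, 39.5 and 37.1 CPM under the Pgam label. These values overlapped, with a log2 fold change of 0.09 (SE 0.11, edgeR adjusted p 0.564).

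For Gclm, the scrambled ASO libraries had 43.4, 40.0 and 42.6 CPM and the Pgam ASO libraries 53.6, 56.8 and 52.5 CPM. Every Pgam ASO library was above every scrambled ASO library, and both groups were tight, with means of 42.0 ± 1.81 and 54.3 ± 2.23 CPM (SD, n = 3 each). Gclm rose by 0.37 on the log2 scale, a 1.29-fold difference (SE 0.09, edgeR adjusted p 0.0224). Some of its sequence is not its own, since 6.82% of the 31-base stretches of its transcripts recurred in other genes, among them Ppia and its copies.

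The ratio of Gclm to Gclc, modifier to catalytic subunit transcript, put this contrast within each library. In CPM it was 1.21, 1.02 and 1.35 in the scrambled ASO libraries and 1.43, 1.44 and 1.41 in the Pgam ASO libraries. All 3 Pgam ASO values lay above the scrambled ASO values and spread far less, with means of 1.43 ± 0.0119 against 1.19 ± 0.167 (SD, n = 3 each). A two-sided exact permutation test gave p = 0.1, the smallest p that 3 against 3 libraries allow. Any groups of this size that do not overlap give this p, so it adds nothing to the separation itself. The ratio compares counts of transcripts of unlike length, so its size is not a ratio of molecules.

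Gss encodes glutathione synthetase, which adds glycine in the final step. Its level was 17.8, 17.2 and 21.2 CPM in the scrambled ASO libraries and 28.3, 26.6 and 25.3 CPM in the Pgam ASO libraries. The groups did not overlap, and the highest scrambled value, in replicate 3, was below the lowest Pgam value, also in replicate 3. Gss rose by 0.52 on the log2 scale, or 1.43-fold (SE 0.12, edgeR adjusted p 0.0213). Of its 31-base stretches, 12.8% were shared, with Acss2 and the antisense transcripts Gssos1 and Gssos2. Gssos1 had 0 counts and Gssos2 had 3 counts over all 6 libraries, and whether the counting used strand is not given in the sources used here.

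Gsr and Gpx4 restore and spend glutathione. Gsr, the NADPH-dependent reductase that returns oxidized glutathione to its reduced form, had 50.7, 39.8 and 56.8 CPM under the scrambled label and 66.6, 60.3 and 52.3 CPM under the Pgam label. Pgam replicate 3 fell among the scrambled values, and the difference did not pass (log2 fold change 0.28, SE 0.14, edgeR adjusted p 0.173). The Gsr value was 0.15 without scrambled replicate 2 and 0.40 without scrambled replicate 3. Gpx4, the selenoenzyme that uses glutathione to reduce lipid hydroperoxides in membranes, had 150, 131 and 167 CPM and then 150, 157 and 159 CPM in the same order. All 3 Pgam ASO libraries lay within the scrambled ASO range, with a log2 fold change of 0.06 (SE 0.10, edgeR adjusted p 0.692). Its sign turned to -0.02 without scrambled replicate 2, the lowest library. Of the 31-base stretches of Gpx4, 38.9% occurred in other genes, chiefly the processed copy Gpx4-ps2 with 3408 counts, and the sum of Gpx4 with the genes that share at least 10% of its stretches gave 0.05 on the log2 scale (edgeR adjusted p 0.752).

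Txnrd1 belongs to the thioredoxin arm, which runs beside glutathione and takes its electrons from NADPH as well. It encodes the cytosolic thioredoxin reductase, a selenoprotein. Its level was 150, 123 and 167 CPM in the scrambled ASO libraries and 252, 209 and 190 CPM in the Pgam ASO libraries. Every Pgam ASO library was above every scrambled ASO library, though scrambled replicate 3 and Pgam replicate 3 lay close together. Txnrd1 rose by 0.57 on the log2 scale, or 1.48-fold (SE 0.13, edgeR adjusted p 0.0218). No 31-base stretch of Txnrd1 was found in another gene.

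Srxn1 encodes sulfiredoxin, which repairs overoxidized peroxiredoxins and is a well-known NRF2 target. It had 9.06, 6.81 and 12.8 CPM under the scrambled label and 20.1, 15.2 and 12.7 CPM under the Pgam label. Scrambled replicate 3 and Pgam replicate 3 met at nearly the same level, so the groups overlapped narrowly, and the other Pgam libraries were higher. Its log2 fold change of 0.75 was the highest among the 9 tested members, yet it did not pass (SE 0.24, edgeR adjusted p 0.0562). DESeq2 called Srxn1 with an adjusted p of 0.0171. The edgeR fit without a filter on low counts called it as well (adjusted p 0.000313), where 6.43% of 28512 genes were called higher. Over 15 alternatives its adjusted p ran from 0.000313 to 0.192.

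The genes whose profile over the 6 libraries was nearest to that of Srxn1 were Lrfn1, Lmna and Adora2b, with root mean square differences of 0.0736, 0.074 and 0.0958 in centred log2 CPM. Lmna, for example, had 9.45, 7.83 and 12.5 CPM under the scrambled label and 19.9, 15.9 and 13.4 CPM under the Pgam label. Lmna was chosen for its nearness, so that the same libraries were high and low as for Srxn1 follows from the choice. Unlike Srxn1, Lmna did not overlap between the groups and passed (edgeR adjusted p 0.038). Lrfn1 (0.0604) and Adora2b (0.0552) did not pass.

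Hmox1 encodes heme oxygenase-1, the inducible enzyme that opens heme to biliverdin, iron and carbon monoxide. It was scarce, at 6.19, 3.46 and 5.64 CPM in the scrambled ASO libraries and 8.45, 5.65 and 5.86 CPM in the Pgam ASO libraries. The groups overlapped, with scrambled replicate 2 lowest and Pgam replicate 1 highest. Its log2 fold change was 0.39 (SE 0.27, edgeR adjusted p 0.329). That value was 0.17 without scrambled replicate 2, 0.18 without Pgam replicate 1 and 0.55 without scrambled replicate 1.

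Slc7a11 encodes xCT, the light chain of the transporter that brings in cystine in exchange for glutamate. It was close to absent, with 5, 3 and 0 estimated counts in the scrambled ASO libraries and 21, 6 and 5 counts in the Pgam ASO libraries. Pgam replicate 1 held most of the counts, and in the other Pgam libraries the count was near that of scrambled replicate 1. The gene did not pass the filter on low counts and so had no test in the main comparison. In the fit without that filter its log2 fold change was 2.09 (edgeR adjusted p 0.0578), which did not pass. Of its 31-base stretches, 4.27% recurred in other genes, among them the abundant tubulin genes Tuba1a, Tuba1b and Tuba1c.

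The nearness of scrambled replicate 3 and Pgam replicate 3 at Gss, Txnrd1 and Srxn1 was also seen over the tested genes. Between these 2 libraries the chi-square of their counts per degree of freedom was 17.0, the lowest of any pair across the groups. It was below that of scrambled replicates 2 and 3 (27.1) and of Pgam replicates 1 and 3 (20.2), pairs within a group. The 3 calls depended on which libraries were in the fit. Without scrambled replicate 1, Pgam replicate 1 or Pgam replicate 2, edgeR called 0 members, with the lowest adjusted p of a member at 0.0756, 0.0606 and 0.0873, in fits that called 1.45%, 2.1% and 1.03% of all tested genes higher. At an unadjusted p under 0.05 each of these fits had 4 members higher, beside 12.5%, 12.0% and 11.5% of all tested genes. Without scrambled replicate 2, Txnrd1 alone was called (adjusted p 0.0415), in a fit that called 3.25% of genes higher. Without scrambled replicate 3 or Pgam replicate 3, Gclm, Gss, Txnrd1 and Srxn1 were called, where 11.0% and 10.2% of genes were called higher. The sizes moved less than the calls did. Over the 6 fits with a library left out, the log2 fold change ran from 0.33 to 0.40 for Gclm, from 0.46 to 0.62 for Gss and from 0.45 to 0.68 for Txnrd1. At a stricter adjusted p of 0.01, edgeR called 0 of the 9 members and 453 of all tested genes, and DESeq2 called 3 of the 9 higher, beside 5.18% of all tested genes.

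**Figure D2:**
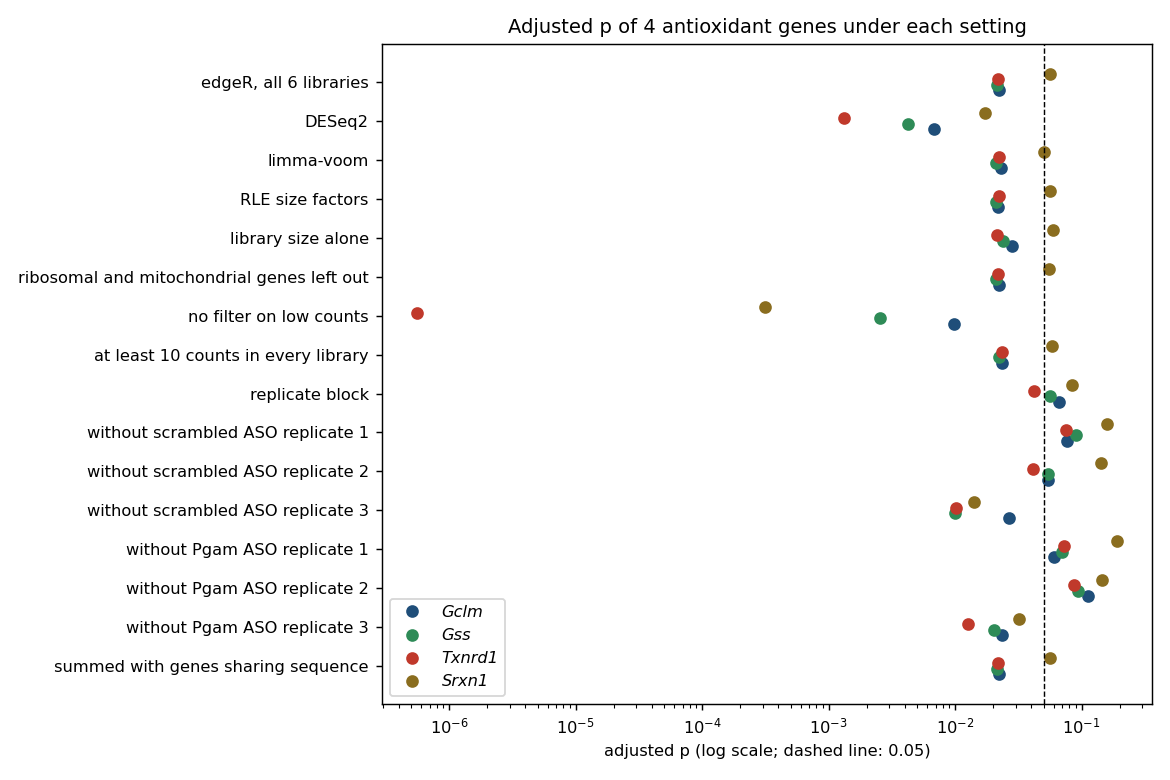
Adjusted p (horizontal log axis, dashed line at 0.05) of Gclm, Gss, Txnrd1 and Srxn1 under the edgeR comparison of all 6 libraries and 15 alternatives, which include each library left out in turn. The alternative that sums genes sharing sequence left the counts of these genes unchanged. Points of Gclm, Gss and Txnrd1 lie left of the line with all 6 libraries and cross it when scrambled replicate 1, Pgam replicate 1 or Pgam replicate 2 is left out.

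The members span a wide range of levels when scaled by length. On CPM per kilobase of annotated exon in the scrambled ASO libraries, Gpx4 stood first at 86.5 ± 10.3 (SD, n = 3, as for each level here). Txnrd1 at 20.7 ± 3.17 and Gsr at 17.8 ± 3.14 came next, with means closer than 1 SD, though Txnrd1 was above Gsr in each of the 3 libraries. Gclc at 9.45 ± 1.04, Nfe2l2 at 7.81 ± 1.01 and Gclm at 6.67 ± 0.287 formed the middle, with neighbouring means apart by more than 1 SD while their ranges of mean ± SD met, and Gclc was above Nfe2l2 in each of the 3 libraries. Srxn1 at 3.38 ± 1.07, Gss at 3.16 ± 0.366 and Hmox1 at 2.91 ± 0.825 were not separated from each other. Slc7a11 was last, at 0.0106 ± 0.0101. Under the Pgam label the level of Gclm was 8.63 ± 0.355, above that of Nfe2l2 at 7.31 ± 0.432. That order was opposite to the scrambled ASO order on this length alone. With the median transcript length in place of annotated exon length, Gpx4 stayed first and Hmox1 and Slc7a11 stayed last, Gsr ranked 2 and Txnrd1 3, and Gclm at 47.9 ± 2.06 (rank 4) was already above Nfe2l2 at 15.1 ± 1.96 (rank 8) in the scrambled ASO libraries.

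All 10 members are protein-coding genes on GRCm38, the build of the submitters' processing notes, and coordinates here come from GENCODE release M21. Gclm (ENSMUSG00000028124) lies at chr3:122245557-122270732 on the plus strand. Gss (ENSMUSG00000027610) lies at chr2:155563181-155592810 on the minus strand. Txnrd1 (ENSMUSG00000020250) lies at chr10:82833951-82897712 on the plus strand. Srxn1 (ENSMUSG00000032802) lies at chr2:152105516-152111376 on the plus strand, so it shares chromosome 2 with Gss and with Nfe2l2 (ENSMUSG00000015839) at chr2:75675513-75704641 on the minus strand.

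NRF2 acts through the antioxidant response element, whose core reads TGACNNNGC, and ATF4, a factor of the amino acid stress response, binds composite elements such as TTGCATCA. RefSeq promoter windows (GRCm38.p6, 250 bases before to 50 bases after a start) were found for 7 of the 10 members, 12 windows in all. Gclc, Gsr and Hmox1 had none in the table used. The letters TGACNNNGC, searched on both strands, stood in windows of 4 members, Nfe2l2, Gclm, Txnrd1 and Srxn1. These were 4 of the 12 member windows, beside 12.4% of 32851 windows of the same length. Txnrd1 had 3 windows, and only 1 held a match, at a start inside the annotated gene. TTGCATCA stood in the Slc7a11 window, on each strand at separate places, and in 0.895% of all windows. No match overlapped an AP-1 element (TGACTCA or TGAGTCA). Positions count from 1 at the first base of the transcript, and negative positions count back from the base before it. The stretches around the matches are shown for the called members that have one, Gclm and Txnrd1, and for Srxn1, Nfe2l2 and Slc7a11, 5′ to 3′ on the gene's strand, with the match in capitals. In Gclm, Txnrd1 and Srxn1 the capitals read as the reverse complement of TGACNNNGC.
Gclm, chr3:122245398-122245456, plus strand, match at -134 to -126: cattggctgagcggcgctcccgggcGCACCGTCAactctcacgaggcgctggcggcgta
Txnrd1, chr10:82859089-82859147, plus strand, match at -92 to -84: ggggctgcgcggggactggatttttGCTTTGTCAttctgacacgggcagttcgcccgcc
Srxn1, chr2:152105542-152105571, plus strand, match at 29 to 37, past the start: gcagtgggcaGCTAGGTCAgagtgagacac
Nfe2l2, chr2:75704870-75704913, minus strand, match at -240 to -232: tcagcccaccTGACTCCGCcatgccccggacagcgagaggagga
Slc7a11, chr3:50443628-50443704, minus strand, matches at -66 to -59 and -47 to -40: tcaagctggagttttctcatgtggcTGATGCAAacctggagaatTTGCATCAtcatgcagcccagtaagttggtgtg
The Nfe2l2 stretch lies in an exon of the noncoding transcript E030042O20Rik. Gss, which rose, had no match to either set of letters in its window, and Nfe2l2, which had one, did not pass the test. A match describes letters in a window, and no binding was measured.

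The genes that govern NRF2 were read next, as a list of 15, all tested. Of these, Mafg and Rbx1 rose and Bach2 and Sqstm1 fell (13.3% in each direction), and the median log2 fold change was 0.17. The background for this and each list that follows was 8.03% higher and 9.15% lower over all tested genes. Bach2, a repressor that pairs with small MAF proteins and is well known for restraining effector genes in T cells, had 185, 216 and 147 CPM under the scrambled label and 91.1, 86.6 and 95.2 CPM under the Pgam label. The groups were far apart and the Pgam ASO libraries were tight. Bach2 fell by 1.01 on the log2 scale (SE 0.13, edgeR adjusted p 0.00173) and was called with any single library left out. Mafg, a small MAF that serves as partner of both NRF2 and BACH proteins, had 54.9, 45.9 and 52.6 CPM and then 67.1, 70.8 and 63.9 CPM. Its groups did not overlap (log2 fold change 0.40, SE 0.10, edgeR adjusted p 0.0239). The small MAF genes Maff (log2 fold change -0.54, edgeR adjusted p 0.104) and Mafk (0.28, edgeR adjusted p 0.152) did not pass. Maff was lower in every Pgam ASO library, and both are named after their values were seen.

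Rbx1, a RING subunit of the ligase that degrades NRF2, rose by 0.37 (edgeR adjusted p 0.0326), and Sqstm1, the autophagy adaptor that can sequester KEAP1, fell by 0.37 (edgeR adjusted p 0.0197), both on the log2 scale. Keap1, the adaptor that presents NRF2 for degradation, had 93.8, 88.3 and 92.8 CPM and then 102, 110 and 112 CPM. Its groups did not overlap, yet it did not pass (log2 fold change 0.24, SE 0.08, edgeR adjusted p 0.0623). Bach1, the BACH protein best known for repressing Hmox1, had means of 14.0 ± 4.78 and 8.75 ± 1.19 CPM (SD, n = 3 each) and did not pass (log2 fold change -0.68, edgeR adjusted p 0.0742). It passed by DESeq2 (adjusted p 0.0372).

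**Figure D3:**
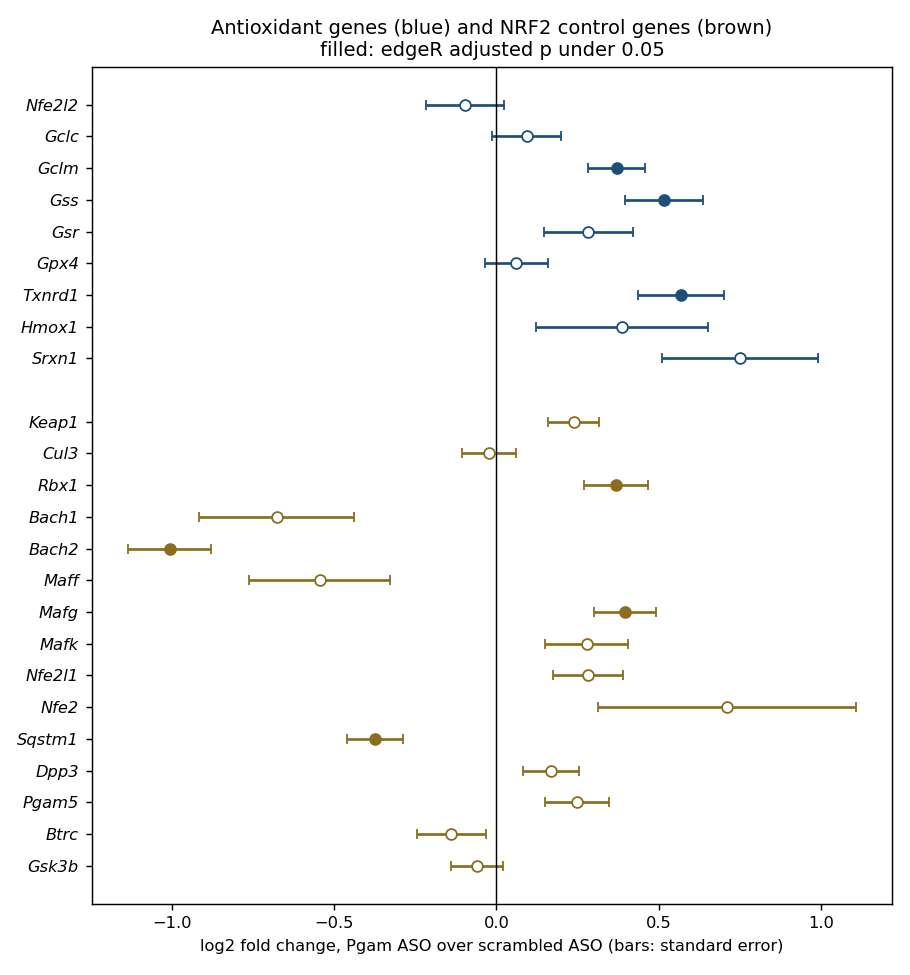
Log2 fold change (Pgam ASO over scrambled ASO, horizontal axis) with its standard error for the 9 tested antioxidant genes (blue) and 15 genes that control NRF2 (brown), filled where edgeR's adjusted p was under 0.05. Gclm, Gss and Txnrd1 are filled to the right of 0, Bach2 stands farthest left at -1.01, and Nfe2l2 sits near 0 at -0.10.

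Synthesis of glutathione draws on imported cystine and on cysteine made or carried by other routes, and 3 of 18 tested genes of that supply were called, 11.1% higher and 5.56% lower, near the 8.03% and 9.15% over all tested genes. Slc3a2, the heavy chain that SLC7A11 and other amino acid transporters need to reach the surface, had 101, 86.5 and 111 CPM under the scrambled label and 184, 172 and 158 CPM under the Pgam label. The groups were well separated. Slc3a2 rose by 0.78 on the log2 scale (SE 0.11, edgeR adjusted p 0.00235) and was called with any single library left out. Slc1a4, a neutral amino acid carrier that takes serine and cysteine, rose by 1.15 (edgeR adjusted p 0.0082), from a mean of 7.35 ± 1.21 to 16.3 ± 3.88 CPM (SD, 3 libraries each). Sqor, which oxidizes sulfide in mitochondria, fell by 1.19 (edgeR adjusted p 0.0238). These were the called genes of that list, 2 higher and 1 lower, and its median log2 fold change was 0.13.

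A list of enzymes that break glutathione down or salvage its parts also held the transporters Abcc1, Slc25a39 and Slc25a40. Of its 11 tested genes 5 rose (45.5%) and 0 fell, with a median of 0.24. The number lower was also 0 at an unadjusted edgeR p under 0.05 and by DESeq2. Chac1, which cleaves glutathione inside the cell, had 0.675, 0.972 and 2.04 CPM under the scrambled label and 6.52, 7.44 and 5.56 CPM under the Pgam label. It was low in every scrambled ASO library and higher in all 3 Pgam ASO libraries. Chac1 rose by 2.41 on the log2 scale, or 5.32-fold (SE 0.36, edgeR adjusted p 0.00371), and was called with any single library left out. Lap3, a leucine aminopeptidase, rose by 0.66 (edgeR adjusted p 0.032). The other called genes of this list were Ggt7, Cndp2 and the exporter Abcc1, named after their values were seen.

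Glutathione peroxidases, transferases and glutaredoxins use what the members make. Their list also held Glo1, Hagh and Esd, which belong to none of these classes and were not called. Of its 24 tested genes 2 rose (8.33%) and 6 fell (25%), with a median of -0.037. In every library 6 more were at 0 (Gpx2, Gpx5, Gpx6, Gsta1, Gstm3 and Gstm6). Glrx, the cytosolic glutaredoxin that removes glutathione from proteins, fell by 0.62 (edgeR adjusted p 0.0162), from 36.1 ± 4.75 to 23.5 ± 3.15 CPM (SD, 3 libraries each). Hpgds, a sigma-class transferase that makes prostaglandin D, was scarce and fell by 1.51 (edgeR adjusted p 0.0399). Gpx3, the secreted glutathione peroxidase, rose by 0.81 (edgeR adjusted p 0.0348). Glrx5, the mitochondrial glutaredoxin of iron-sulfur cluster assembly, rose by 0.50 (edgeR adjusted p 0.0212).

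A list of thioredoxins and peroxiredoxins, the partners of Txnrd1 and Srxn1, also held Txnip, the sestrins and methionine sulfoxide reductases. Of its 21 tested genes 4 rose and 4 fell (19.0% each), with a median of 0.15, and Prdx6 was the peroxiredoxin among those that fell. Prdx1, the abundant cytosolic peroxiredoxin that SRXN1 repairs, had 198, 186 and 235 CPM and then 295, 292 and 250 CPM. The groups did not overlap, and Prdx1 rose by 0.44 (SE 0.11, edgeR adjusted p 0.026). Txnip, which binds and inhibits thioredoxin and is known to follow glucose metabolism, had 459, 690 and 366 CPM under the scrambled label and 101, 146 and 226 CPM under the Pgam label. It varied widely within both groups, which still did not overlap, and fell by 1.68 (SE 0.37, edgeR adjusted p 0.0347). The sestrins moved apart, with Sesn2 up by 0.77 (edgeR adjusted p 0.00376) and Sesn1 at -1.58 (edgeR adjusted p 0.0214). Prdx3 and Txnl1 also rose and Prdx6 and Sesn3 also fell, 4 genes named after their values were seen.

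**Figure D4:**
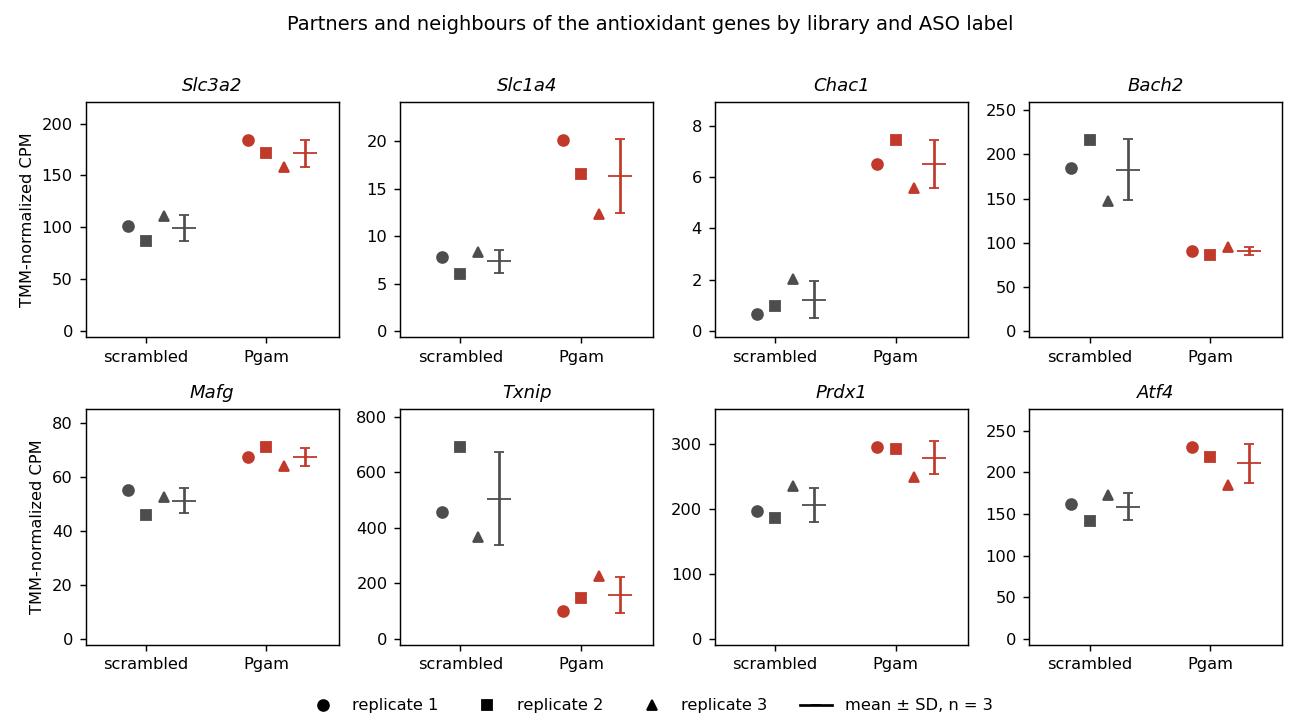
TMM-normalized CPM (vertical axes from about 0) of 8 genes that work beside the antioxidant genes, in each of the 6 libraries by ASO label, with marker shape for the replicate number and bars for the mean ± SD of 3 libraries. Slc3a2, Slc1a4, Chac1, Mafg, Prdx1 and Atf4 lay higher in all 3 Pgam ASO libraries, and Bach2 and Txnip lower.

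Other known NRF2 targets split, with 8 of 21 tested genes higher (38.1%), 2 lower (9.52%) and a median of 0.044. Tigar, which turns glucose toward the pentose phosphate pathway, rose by 0.69 (edgeR adjusted p 0.0277). Trim16, a ubiquitin ligase, rose by 0.48 (edgeR adjusted p 0.0227), and all 3 Pgam ASO libraries were above the scrambled ones. The pentose phosphate genes G6pdx, Pgd, Tkt and Taldo1, of which G6pdx and Pgd encode enzymes that make NADPH, were among the 8. They are named after their values were seen, as are Me1 and Abcc1. Ephx1, the microsomal epoxide hydrolase, fell by 1.52 (edgeR adjusted p 0.00179), from 44.0 ± 5.12 to 15.3 ± 4.31 CPM (SD, 3 libraries each). The other called gene that fell was the transferase Gstm1, named after its values were seen. Nqo1, the NRF2 target most often used as its readout, was scarce, with means of 0.804 ± 0.523 and 1.29 ± 0.379 CPM (SD, n = 3 each), and did not pass (log2 fold change 0.67, edgeR adjusted p 0.358). It was singled out after its values were seen.

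ATF4 is activated when amino acids run short and shares Slc7a11, Chac1 and Slc3a2 among its known targets. Of the 20 tested genes in the ATF4 list, 12 rose (60%) and 0 fell, with a median of 0.54. At an unadjusted edgeR p under 0.05 the number lower was 1 (Vldlr, named after its values were seen), and by DESeq2 it was 0. Atf4 itself had 161, 142 and 173 CPM and then 230, 218 and 184 CPM. The groups were separate, with scrambled replicate 3 and Pgam replicate 3 nearest to each other, and Atf4 rose by 0.41 (SE 0.11, edgeR adjusted p 0.0315). Atf3, a stress-induced factor of the same family, rose by 2.25, or 4.76-fold (edgeR adjusted p 0.00953).

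Genes of lipid peroxidation and ferroptosis, the iron-dependent death that Gpx4 prevents, numbered 12 tested, of which 6 rose (50%) and 0 fell, with a median of 0.34. Lpcat3, which places polyunsaturated chains in phospholipids, rose by 0.54 (edgeR adjusted p 0.00661), and Fdft1, a squalene synthase, by 0.52 (edgeR adjusted p 0.0225). In heme and iron handling 5 of 21 tested genes rose (23.8%) and 0 fell, with a median of 0.060. In both lists the number lower was 0 as well at an unadjusted edgeR p under 0.05 and by DESeq2. The heme synthesis enzyme Alad rose by 0.50 (edgeR adjusted p 0.0337), and Flvcr1, Tfrc and Aco1, named after their values were seen, were also among the called genes.

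Gpx4 and Txnrd1 encode selenoproteins and share the machinery that inserts selenocysteine. Of 20 tested genes of selenoprotein synthesis and other selenoproteins 2 rose (10%) and 1 fell (5%), with a median of 0.13. Sephs2, which makes the selenium donor, rose by 0.40 (edgeR adjusted p 0.035), Selenos by 0.39 (edgeR adjusted p 0.0293), and Secisbp2l fell by 0.33 (edgeR adjusted p 0.0286). DESeq2 called 2 genes of this list higher and 2 lower. Selenop, named after its values were seen, was lower in every Pgam ASO library (log2 fold change -1.51). It did not pass by edgeR (adjusted p 0.0538) and passed by DESeq2 (adjusted p 0.00909). Of 10 tested genes that make or clear superoxide and hydrogen peroxide, Sod1 rose by 0.27 (edgeR adjusted p 0.0456) and Ncf1, a subunit of the phagocyte oxidase, fell by 0.48 (edgeR adjusted p 0.025), with a median of 0.041. Counting each gene once, the lists beside the 10 members held 220 genes. Of the 186 tested, 24.7% were called higher and 8.6% lower, and their median log2 fold change was 0.15. Of the 30 genes that the naming rule took from these lists, 6 were called with any single library left out (Bach2, Chac1, Ephx1, Lpcat3, Sesn2 and Slc3a2), and each of the others lost its call without at least 1 library. Among the called list genes named after their values were seen, Prdx6, Me1 and Gstm1 were called in 0 of the 6 fits with a library left out.

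**Figure D5:**
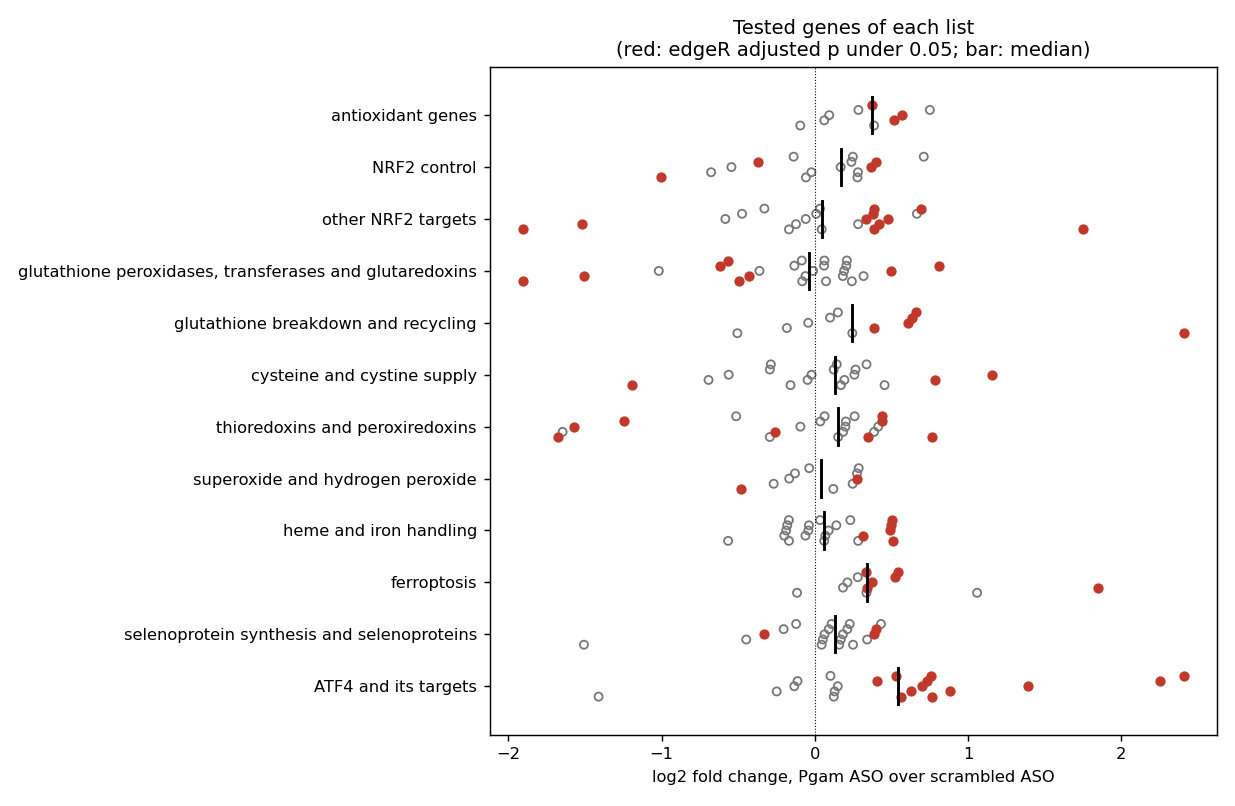
Log2 fold change (Pgam ASO over scrambled ASO, horizontal axis) of each tested gene in the antioxidant list and 11 neighbouring lists, red where edgeR's adjusted p was under 0.05, with a bar at each list's median. The ATF4 list has the highest median at 0.54, and the list of glutathione peroxidases, transferases and glutaredoxins has the lowest at -0.037. Some genes stand in more than 1 list.

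Markers of the cells present were summed in each library. The 10 CD4 T cell markers summed to 3889, 4246 and 3642 CPM under the scrambled label and 3107, 3226 and 3345 CPM under the Pgam label, with Cd4 the most abundant and 3 of 10 called lower (Cd28, Cd5 and Trac). At an unadjusted edgeR p under 0.05, 9 of the 10 were lower, DESeq2 called 5 lower, and for 9 every Pgam ASO library was below every scrambled ASO library. Of 7 Treg markers, Il2ra rose and Foxp3 and Ikzf2 fell, and their sum, mostly Il2ra, ran from 3279 to 4184 CPM. DESeq2 called 3 of the 7 lower. The 7 B cell markers summed to 329, 458 and 222 CPM and then 86.1, 120 and 150 CPM, nearly all of it Ighm, the 1 called gene of 6 tested. Cd79a, a subunit of the B cell receptor, was at most 5.35 CPM. The 7 CD8 T and NK cell markers summed to 85.2, 72.5 and 94.1 CPM and then 59.4, 50.8 and 51.7 CPM, with Eomes most abundant, Cd8a higher, Eomes and Klrd1 lower and Klrb1c at 0. DESeq2 called 3 of these lower, and of the B cell markers 2 lower and 1 higher.

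Macrophages that clear red cells are rich in Hmox1, so their markers were read beside it. The 16 macrophage, monocyte and dendritic cell markers summed to 9.34, 9.67 and 9.42 CPM under the scrambled label and 7.33, 6.48 and 8.46 CPM under the Pgam label, with Cd68 most abundant, Spic at 0 and 0 of 3 tested genes called. Within the list, Cd68 was lower in every Pgam ASO library (5.12, 5.29 and 6.38 CPM and then 3.35, 3.46 and 4.44 CPM), Lyz2 was higher in every one (1.24, 1.35 and 0.867 CPM and then 1.37, 1.48 and 1.6 CPM), and the others overlapped or were at 0. The 8 erythroid markers summed to between 1.61 and 4.16 CPM, with Alas2 most abundant, Hba-a2 at 0 and 0 of 3 called. At an unadjusted edgeR p under 0.05, Cd68 and Klf1 were the genes of these 2 lists that were lower, and DESeq2 called 0. Klf1 was lower in every Pgam ASO library (1.29, 0.594 and 0.744 CPM and then 0.0621, 0.321 and 0.414 CPM). Hbb-bt of the same erythroid list was higher in every one (0.113, 0 and 0.124 CPM and then 0.248, 0.257 and 0.888 CPM). Hbb-bt had few counts and was not tested in the main comparison, and the other erythroid markers overlapped or were at 0. The 7 neutrophil markers summed to at most 3.85 CPM (S100a9 most abundant, Retnlg at 0, 0 of 2 called). The 8 mast cell and basophil markers summed to between 6.61 and 8.18 CPM (Kit most abundant, Mcpt4 at 0), with Gata2 higher and Kit lower of 3 tested, and DESeq2 called 2 higher and 1 lower. Members of that list moved apart, with Kit lower in every Pgam ASO library (means 5.57 and 1.73 CPM) and Cpa3 (means 1.07 and 2.31 CPM), Mcpt8, Fcer1a and Gata2 higher in every one. The part that cells bearing any of these markers have in the antioxidant genes, Hmox1 included, was not tested.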

How the data were processed

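RNA-seq libraries of polyA RNA from 6 cultures were compared, 3 with the scrambled ASO label and 3 with the Pgam ASO label. The deposited table holds estimated counts per Ensembl gene that the authors obtained with Kallisto, as whole numbers (GRCm38 in the submitters' processing notes; annotation and version are not given in the sources used here). Some of its gene identifiers are not in GENCODE M21, which supplied symbols, lengths and 31-base stretches. Counts were filtered (filterByExpr), TMM-normalized and tested with edgeR 4.0.16 in R 4.3.3 (robust quasi-likelihood, two-sided, Benjamini-Hochberg over 14936 genes, threshold 0.05). DESeq2 1.42.0, the authors' tool, and limma 3.58.1 served as alternatives, beside other scalings and filters, a replicate block and each library left out. The procedure was tested on simulated counts in which 200 genes changed 2-fold. It recovered 71% of them, and 3.4% of its calls were false. The called members changed less than 2-fold, so this recovery does not apply to changes of their size. Members and lists were chosen with earlier results of these data known. Genes named were the members, Pgam1, Pgam2, Foxp3, Keap1, Bach1, Bach2, Atf4 and, per list, up to 2 called genes with the highest and up to 2 with the lowest log2 fold change at a mean log2 CPM of at least 1. Some genes that this rule or the lists include are not reported here. Likeness to Srxn1, the member with the largest change among the 9 tested, used log2 of CPM plus 0.1 in Python 3.11.15. The authors describe the libraries of a group as biological replicates. No source used here says whether these are separate animals or cultures, or whether equal numbers share animals, so p-values measure the spread between these libraries.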

Additional observations from a re-analysis of the deposited data

How the results depend on the processing

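The number of called antioxidant members (3) was 1 with the replicate number as a block, 0 at an adjusted p of 0.01 and between 0 and 4 with a library left out. For all tested genes (2565 called) these values were 1235, 453 and between 391 and 3484, and for the other pathway genes (62 called) 30, 14 and between 14 and 73. Libraries of equal replicate number did not deviate alike from their group means (correlations of the deviations 0.053, -0.034 and -0.24). These correlations cannot tell whether equal numbers share animals, and the sources do not say. The block of replicate numbers is therefore given here as an alternative only. Under it Txnrd1 stayed called (edgeR adjusted p 0.042), and Gclm (0.0663) and Gss (0.0561) did not. The share of calls that were higher was 46.7%, and 38.9% with the block. DESeq2 called 3213 genes and the fit without a filter 3732. Across 15 alternatives Gclm and Gss each kept the side of the threshold in 10, Txnrd1 in 12 and Srxn1 in 11. Nfe2l2, Gclc, Gsr, Gpx4 and Hmox1 kept it in all 15. The sum of a gene with those that share at least 10% of its stretches is among the 15. Of the members it changed only the counts of Gpx4, so for the others it was no separate check. The log2 fold change of Gpx4 turned to -0.0247 without scrambled replicate 2 and reached 0.151 without scrambled replicate 3. The number of all genes called rose without scrambled replicate 3 (3484) or Pgam replicate 3 (3319) and fell without each of the others, and the cause of these differences was not tested. Levels per length changed with the length used. Slc7a11 was tested only without the filter on low counts.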
